A study of Mus musculus with 14 samples.

Results

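Of the 9896 protein-coding autosomal genes in the table, 98 were lower in every one of 5 libraries than in every one of the other 9, with means at least 1 apart on the log2(CPM + 1) scale. CPM are raw counts scaled to the library's total. The 5 low libraries were the Dox-free ones of evolving and of dependent tumours. The choice therefore used the measured values of all 14 libraries, and the separation of the 9 from the 5 is described here without a test. In all, 110 genes met those conditions (1.11% of the 9896), and 12 of them, such as Il2rb, Cd28 and Fyn, were left out by name. The opposite pattern, higher in all 5, was met by 166 genes.

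The libraries came from 8 mouse T-cell acute lymphoblastic leukaemias (T-ALL) of the VTL series, in which Lmo2 was the inducing oncogene. Thymocytes had first been given to irradiated C57BL/6-Ly5.1;FVB F1 mice, and the frozen leukaemias were then passed to C57BL/6-Rag1-/- hosts. Each library was made from donor CD45.1/CD45.2 double positive cells sorted from the spleen of such a host. Independent tumours VTL-33, VTL-44 and VTL-81 gave a library each from hosts on doxycycline (Dox, food with 600 mg/kg) and from hosts without it. Evolving tumours VTL-21, VTL-25 and VTL-153 did the same, and dependent tumours VTL-19 and VTL-24 had a Dox-free library each. The classes describe the relation of a tumour to Lmo2. All groups share the VTL origin and the Rag1-/- host. The labels do not name the promoter of the transgene or say which way Dox acts on it, and each tumour is a single leukaemia. Values are listed below in the tumour order given here.

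Lmo2 is a LIM-domain protein that binds no DNA itself and bridges transcription factors, among them E proteins with Tal1 or Lyl1, Gata factors and Ldb1, in blood stem and progenitor cells. It is normally shut off as thymocytes commit to the T lineage, and when kept on in them it gives progenitor-like cells with long-term self-renewal that can become T-ALL. E proteins bind the short motif CANNTG, called an E box.

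Lmo2 stood at 1.27, 4.07 and 8.40 CPM in independent tumours with Dox, 596, 9.23 and 27.5 CPM in independent tumours without Dox, 3.31, 0.196 and 0.393 CPM in evolving tumours with Dox, 301, 535 and 737 CPM in evolving tumours without Dox, and 122 and 141 CPM in dependent tumours. It was thus high in the 5 libraries and low in 8 of the other 9, and VTL-33 without Dox was the exception. That library held Lmo2 at the level of the evolving tumours without Dox, yet the choice of the genes places it on the high side of all 98. Depth was alike, at 18214415 to 24048281 counts per library. The library of VTL-21 with Dox stood apart in immunoglobulin RNA, with Ighm at 6409 CPM. Each tumour gave 1 library per condition, so the p-values between classes below rest on the spread between tumours. Those for Dox rest on how its change within a tumour varied over tumours. In bulk RNA fewer cells of a type and less RNA per cell cannot be told apart.

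The 98 genes differed by a median of 1.64 on the log2(CPM + 1) scale, 40 of them by at least 2 and 17 by at least 3. Their CPM summed to 4632, 4416 and 4614 in independent tumours with Dox, 3562, 4353 and 3849 in independent tumours without Dox, 3315, 5249 and 4889 in evolving tumours with Dox, 1053, 922 and 1329 in evolving tumours without Dox, and 974 and 1007 in dependent tumours. The summed level in the 9 libraries was at least 3315 CPM and in the 5 at most 1329 CPM. In all 9 libraries 54 genes held at least 10 CPM, and in all 5 libraries 20 genes were under 1 CPM, though none had a count of 0 in all 5. The group with the highest mean level was independent tumours with Dox for 48 genes, independent tumours without Dox for 15 and evolving tumours with Dox for 35. The lowest was dependent tumours for 67 genes and evolving tumours without Dox for 31. The sets were close together for many genes: the gap between the lowest of the 9 and the highest of the 5 had a median of 0.22 in log2, was at least 1 for 10 genes and under 0.1 for 28. At the cut in the difference of means, Camk1d (1.04), Sntb2 (1.04) and Pcdhgb7 (1.03) lay just inside, while Tulp4 (0.99), Lpar6 (0.95) and Baiap2 (0.94) lay just outside. Emb had the smallest gap among the genes, 0.0027. Zfp503 and Epdr1, outside, had a gap of 0, the value that a count of 0 on both sides gives.

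**Figure D1:**
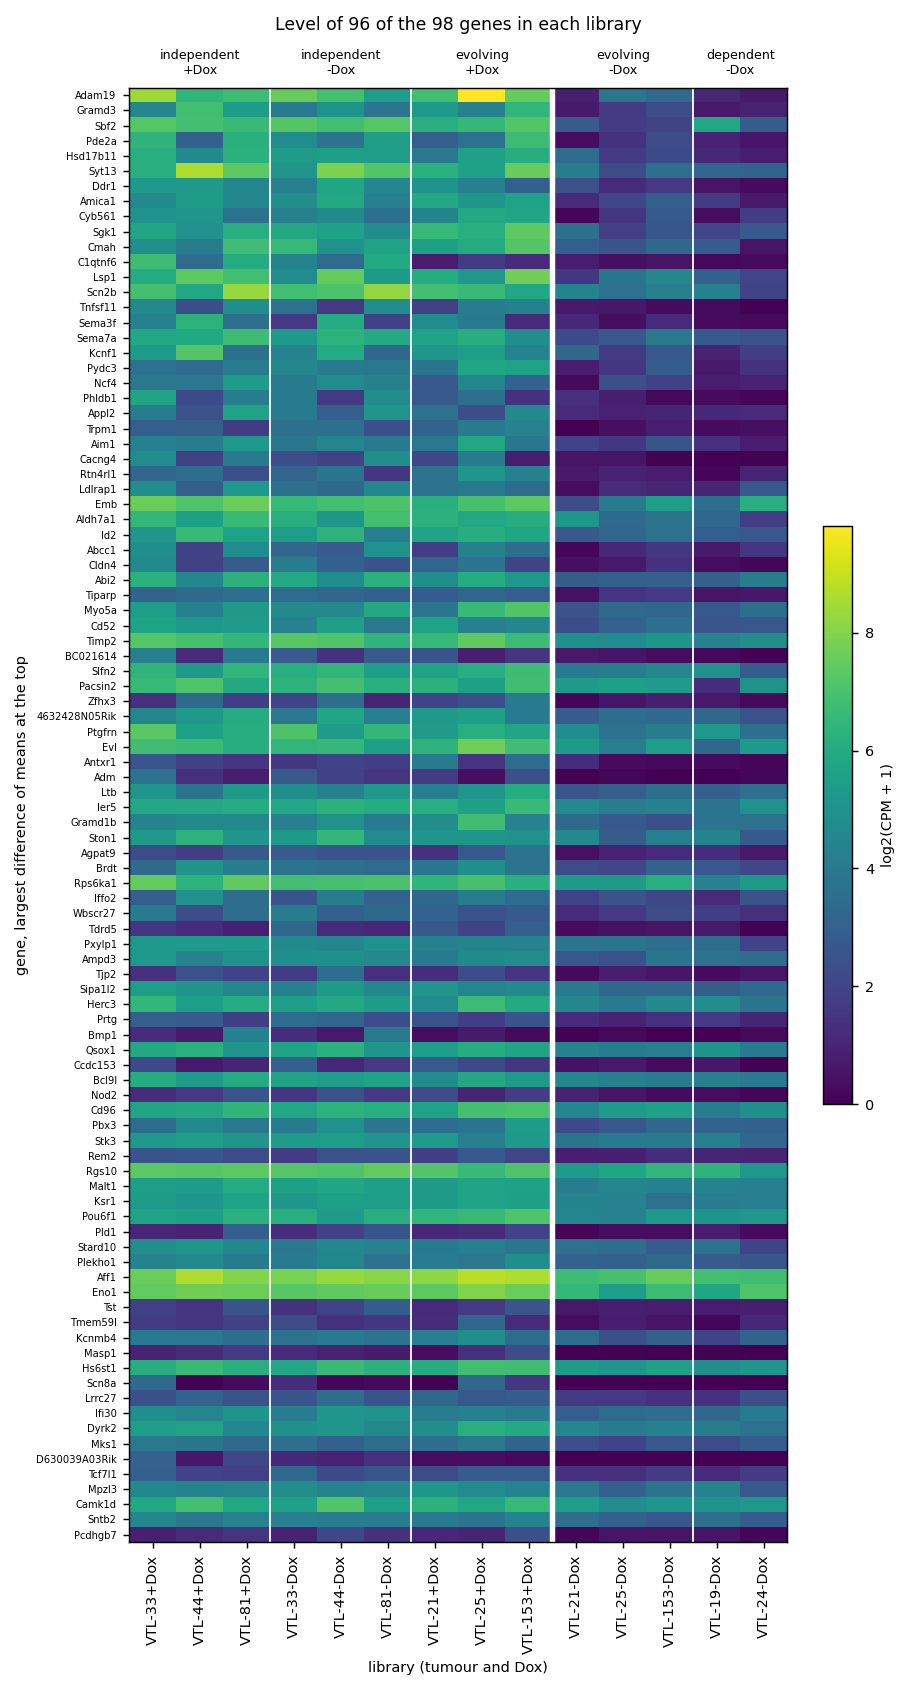
Level of 96 of the 98 genes (rows, largest difference at the top) in the 14 libraries (columns), as log2(CPM + 1) by colour. The 9 libraries on the left are above the 5 on the right in every row, as the choice requires, and the summed levels of the 98 run from 3315 to 5249 CPM on the left and from 922 to 1329 CPM on the right.

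The genes were sorted by what they are known to do, after their values had been seen, and the examples beyond the naming rule given in the methods were chosen by role in the same way. The eligible genes were not sorted by role, so no share stands beside these counts, and the differences are those used in the choice. Cell surface, adhesion and matrix genes were the most numerous, with 20 genes and a median difference of 1.97. Adam19, a membrane metalloprotease that sheds cell-surface proteins, had the largest difference of all 98 at 5.34. It stood at 340.5, 86.9 and 107 CPM in independent tumours with Dox, 185, 117 and 42.8 CPM in independent tumours without Dox, 114, 902 and 181 CPM in evolving tumours with Dox, 0.759, 13.4 and 9.37 CPM in evolving tumours without Dox, and 1.07 and 0.648 CPM in dependent tumours. VTL-25 with Dox was its highest library, the evolving tumours without Dox spread widely, and no library of the 5 came near the lowest of the 9, VTL-81 without Dox. A promoter window is printed here because the gene tops the list. RefSeq lists 3 starts for it on GRCm38.p6, and the 300 bases are those around the first listed, on the + strand at chr11:46054252-46054551, with E boxes in capitals. There are 5 of them. GENCODE M21 begins the gene downstream of this window, at 46055992, and the windows of the other starts were not examined.
Adam19: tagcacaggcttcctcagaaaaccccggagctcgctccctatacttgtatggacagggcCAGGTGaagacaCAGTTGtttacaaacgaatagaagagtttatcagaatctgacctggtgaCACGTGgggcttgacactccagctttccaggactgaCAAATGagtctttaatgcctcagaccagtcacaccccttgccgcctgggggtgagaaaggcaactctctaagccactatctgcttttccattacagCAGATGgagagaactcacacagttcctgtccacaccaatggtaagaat

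Ddr1, a collagen-binding receptor tyrosine kinase, stood at 38.9, 37.7 and 21.2 CPM in independent tumours with Dox, 18.2, 53.9 and 22.2 CPM in independent tumours without Dox, 33, 18.5 and 7.31 CPM in evolving tumours with Dox, 4.46, 1.25 and 2.13 CPM in evolving tumours without Dox, and 0.427 and 0.231 CPM in dependent tumours. Both dependent tumours were under 1 CPM and the evolving tumours without Dox lay between them and the other 9 libraries. The difference of means was 3.46 on the log2(CPM + 1) scale. C1qtnf6, a secreted protein of the C1q and TNF related family, stood at 109, 9.99 and 65.4 CPM in independent tumours with Dox, 20.5, 9.77 and 62.3 CPM in independent tumours without Dox, 0.702, 2.21 and 1.32 CPM in evolving tumours with Dox, 0.669, 0.333 and 0.416 CPM in evolving tumours without Dox, and 0.16 and 0.231 CPM in dependent tumours. The independent tumours held most of its level, and evolving tumours with Dox cleared the 5 libraries by a small margin. A pair of semaphorins, a guidance family that also acts on immune cells, was among the 25 largest differences: Sema3f at a log2 difference of 3.13 and Sema7a at 3.06. Sema3f spanned 1.28 to 80.9 CPM (median 14.9) in the 9 libraries and 0.185 to 1.25 CPM (median 0.291) in the 5. Sema7a spanned 27 to 109 CPM (median 60.7) in the 9 libraries and 3.61 to 14.4 CPM (median 5.57) in the 5. Sema3f had sets that nearly met, while Sema7a left a wider margin. Timp2, an inhibitor of matrix metalloproteases, spanned 84.1 to 171 CPM (median 123) in the 9 libraries and 20.3 to 35.6 CPM (median 28) in the 5. Emb, an immunoglobulin-family partner of monocarboxylate transporters, spanned 70.1 to 197 CPM (median 135) in the 9 libraries and 3.97 to 70.001 CPM (median 15.3) in the 5, with sets that almost touched.

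Immune genes numbered 13, with a median difference of 1.86. Lsp1, an actin-binding protein of lymphocytes and other leukocytes, stood at 65.7, 168 and 115 CPM in independent tumours with Dox, 26.3, 180.4 and 39.6 CPM in independent tumours without Dox, 66.7, 36.4 and 207 CPM in evolving tumours with Dox, 2.01, 13.1 and 22.6 CPM in evolving tumours without Dox, and 7.31 and 3.19 CPM in dependent tumours. The difference was 3.31. Tnfsf11, the cytokine RANKL, spanned 2.12 to 26.9 CPM (median 16.5) in the 9 libraries and 0.0463 to 0.625 CPM (median 0.213) in the 5 (log2 difference 3.19). Ncf4, a subunit of the phagocyte NADPH oxidase, spanned 5.62 to 41.8 CPM (median 16.2) in the 9 libraries and 0.178 to 4.2 CPM (median 0.88) in the 5 (log2 difference 2.84). Both genes were scarce in the 5 libraries, Tnfsf11 the more so. Malt1, a protease that carries the antigen receptor signal to NF-kappaB, stood at 44.7, 42.6 and 64.5 CPM in independent tumours with Dox, 46.7, 55.2 and 46.2 CPM in independent tumours without Dox, 38, 49.2 and 48.3 CPM in evolving tumours with Dox, 16.3, 20.9 and 18.3 CPM in evolving tumours without Dox, and 20.05 and 17.9 CPM in dependent tumours. Its sets were narrow and lay apart, with a gap of 0.83 in log2. Cd96, a receptor for nectin-like ligands on T and NK cells, spanned 49.3 to 135 CPM (median 72.7) in the 9 libraries and 16.5 to 47.6 CPM (median 28.5) in the 5 (log2 difference 1.34). Rgs10, a regulator of G-protein signalling, spanned 99 to 174 CPM (median 149) in the 9 libraries and 36.6 to 86.9 CPM (median 55.1) in the 5. Pydc3, a pyrin-domain gene of the interferon-inducible Ifi200 cluster, spanned 9.7 to 53.6 CPM (median 16.1) in the 9 libraries and 0.587 to 6.19 CPM (median 1.71) in the 5 (log2 difference 2.89), and near-identical copies in that cluster make its counts uncertain.

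Channel and excitability genes, with Syt13 placed among them, numbered 7, with a median difference of 2.81. Scn2b, an auxiliary subunit of voltage-gated sodium channels, stood at 121, 57.3 and 318 CPM in independent tumours with Dox, 114, 130.4 and 301 CPM in independent tumours without Dox, 119, 96.5 and 57.5 CPM in evolving tumours with Dox, 19.9, 11.9 and 17.2 CPM in evolving tumours without Dox, and 18.3 and 3.01 CPM in dependent tumours. VTL-81 held the most in both conditions. Scn8a, a pore-forming sodium channel subunit, spanned 0.0485 to 9.56 CPM (median 0.22) in the 9 libraries and 0 to 0.0416 CPM (median 0) in the 5, low in most libraries. Its lowest value in the 9 and its highest in the 5 are each a single read, so only library depth sets them apart. Syt13, a synaptotagmin of membrane traffic, spanned 34 to 388 CPM (median 144) in the 9 libraries and 3.87 to 16.2 CPM (median 8.53) in the 5 (log2 difference 3.57). Kcnf1, a potassium channel subunit, spanned 8.93 to 145 CPM (median 35.4) in the 9 libraries and 0.96 to 8.34 CPM (median 2.41) in the 5 (log2 difference 2.93). Syt13 left a clear margin between the sets, while those of Kcnf1 nearly met. Trpm1, a cation channel, spanned 2.25 to 19.2 CPM (median 8.03) in the 9 libraries and 0 to 0.78 CPM (median 0.324) in the 5 (log2 difference 2.81), and Cacng4, an auxiliary calcium channel subunit, spanned 0.736 to 29 CPM (median 3.71) in the 9 libraries and 0 to 0.457 CPM (median 0.0533) in the 5 (log2 difference 2.74).

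Kinase and membrane signalling genes numbered 14, with a median difference of 1.40. Sbf2, a myotubularin-related protein that activates Rab GTPases, stood at 147, 122 and 98.9 CPM in independent tumours with Dox, 145, 114 and 148 CPM in independent tumours without Dox, 72.1, 91.7 and 144 CPM in evolving tumours with Dox, 6.11, 2.25 and 3.02 CPM in evolving tumours without Dox, and 56.7 and 6.44 CPM in dependent tumours. The dependent tumour VTL-19 was far above the other 4 of the 5. Sgk1, a kinase of the PI3K pathway that is related to Akt, stood at 55, 29.9 and 71.1 CPM in independent tumours with Dox, 60.3, 47.6 and 28.2 CPM in independent tumours without Dox, 94.6, 70.4 and 164 CPM in evolving tumours with Dox, 11.3, 2.62 and 5.15 CPM in evolving tumours without Dox, and 3.15 and 5.65 CPM in dependent tumours. Evolving tumours with Dox had the highest mean. Pde2a, a phosphodiesterase that cGMP stimulates, spanned 6.87 to 106 CPM (median 26.2) in the 9 libraries and 0.268 to 3.8 CPM (median 0.907) in the 5 (log2 difference 3.67). The identifier listed as Pde2a is named Gm45837 in GENCODE M21, so which gene this value measures is uncertain. Phldb1 (log2 difference 2.82) and Appl2 (log2 difference 2.82), an endosomal adaptor, were also among the 25 largest differences. Rps6ka1, a kinase downstream of ERK, spanned 73.8 to 177 CPM (median 122) in the 9 libraries and 19.5 to 71.2 CPM (median 39.7) in the 5. Ksr1, a scaffold that joins Raf, MEK and ERK, stood at 41.2, 34.8 and 50.3 CPM in independent tumours with Dox, 35.4, 46.5 and 44.6 CPM in independent tumours without Dox, 39.6, 49 and 46.6 CPM in evolving tumours with Dox, 20.6, 19.3 and 11.7 CPM in evolving tumours without Dox, and 16.4 and 17.6 CPM in dependent tumours. It varied least of all 98 genes over the 9 libraries, with an SD of 0.19 in log2(CPM + 1).

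Transcription and chromatin genes numbered 10, with a median difference of 1.46. Aff1, a scaffold of the super elongation complex, spanned 189 to 449.8 CPM (median 279.7) in the 9 libraries and 109 to 184 CPM (median 115) in the 5. Id2 binds E proteins and keeps them off E boxes. It stood at 33.3, 96 and 51.4 CPM in independent tumours with Dox, 44.3, 81.7 and 18 CPM in independent tumours without Dox, 49.2, 69.1 and 54.7 CPM in evolving tumours with Dox, 5.62, 8.11 and 11.9 CPM in evolving tumours without Dox, and 6.56 and 5.42 CPM in dependent tumours. The lowest of the 9 was VTL-81 without Dox and the highest of the 5 was VTL-153 without Dox, and the difference was 2.64. Its promoter is shown because Id2 acts on the E proteins with which Lmo2 works. It lies on the - strand at chr12:25096043-25096342 (RefSeq, GRCm38.p6) and holds 1 E box, of the form CAGCTG, in capitals. This is the start listed by RefSeq, and the gene's 5′ end in GENCODE M21 lies farther upstream, at 25097140.
Id2: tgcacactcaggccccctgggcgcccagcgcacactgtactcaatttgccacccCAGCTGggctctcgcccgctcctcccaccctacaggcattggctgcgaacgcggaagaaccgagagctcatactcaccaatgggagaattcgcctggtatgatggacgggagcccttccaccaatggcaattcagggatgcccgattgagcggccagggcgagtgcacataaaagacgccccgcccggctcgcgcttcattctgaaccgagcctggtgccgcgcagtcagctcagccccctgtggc

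Metabolic, lipid and transport genes numbered 17, with a median difference of 1.62. Gramd3, a lipid-binding protein, spanned 13.5 to 113 CPM (median 32.7) in the 9 libraries and 0.587 to 3.8 CPM (median 0.88) in the 5 (log2 difference 3.85). Hsd17b11, a lipid droplet dehydrogenase of steroids, stood at 70.9, 24.1 and 75.3 CPM in independent tumours with Dox, 40.9, 46.3 and 43.6 CPM in independent tumours without Dox, 14.7, 47.7 and 68 CPM in evolving tumours with Dox, 9.91, 2.2 and 3.59 CPM in evolving tumours without Dox, and 1.12 and 0.741 CPM in dependent tumours. Evolving tumours without Dox were above both dependent tumours. Cyb561, a transmembrane electron carrier, spanned 10.9 to 59.8 CPM (median 24) in the 9 libraries and 0.134 to 5.88 CPM (median 1.75) in the 5 (log2 difference 3.42), and Cmah, which makes the sialic acid Neu5Gc, spanned 16.7 to 146 CPM (median 49.2) in the 9 libraries and 0.417 to 8.85 CPM (median 6.24) in the 5 (log2 difference 3.33). Eno1, the glycolytic enolase, spanned 151 to 248 CPM (median 187) in the 9 libraries and 44.5 to 138 CPM (median 92.5) in the 5, and it has near-identical copies in the genome. The cytoskeleton and endocytosis genes numbered 8, with a median difference of 1.88. Abi2, a subunit of the WAVE complex that starts actin branching, spanned 22.2 to 77.6 CPM (median 63.7) in the 9 libraries and 6.51 to 16.3 CPM (median 6.99) in the 5 (log2 difference 2.40). The 9 genes of other or little known function had a median difference of 1.37, and Aim1, known as Crybg1 in GENCODE, led them (log2 difference 2.77).

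**Figure D2:**
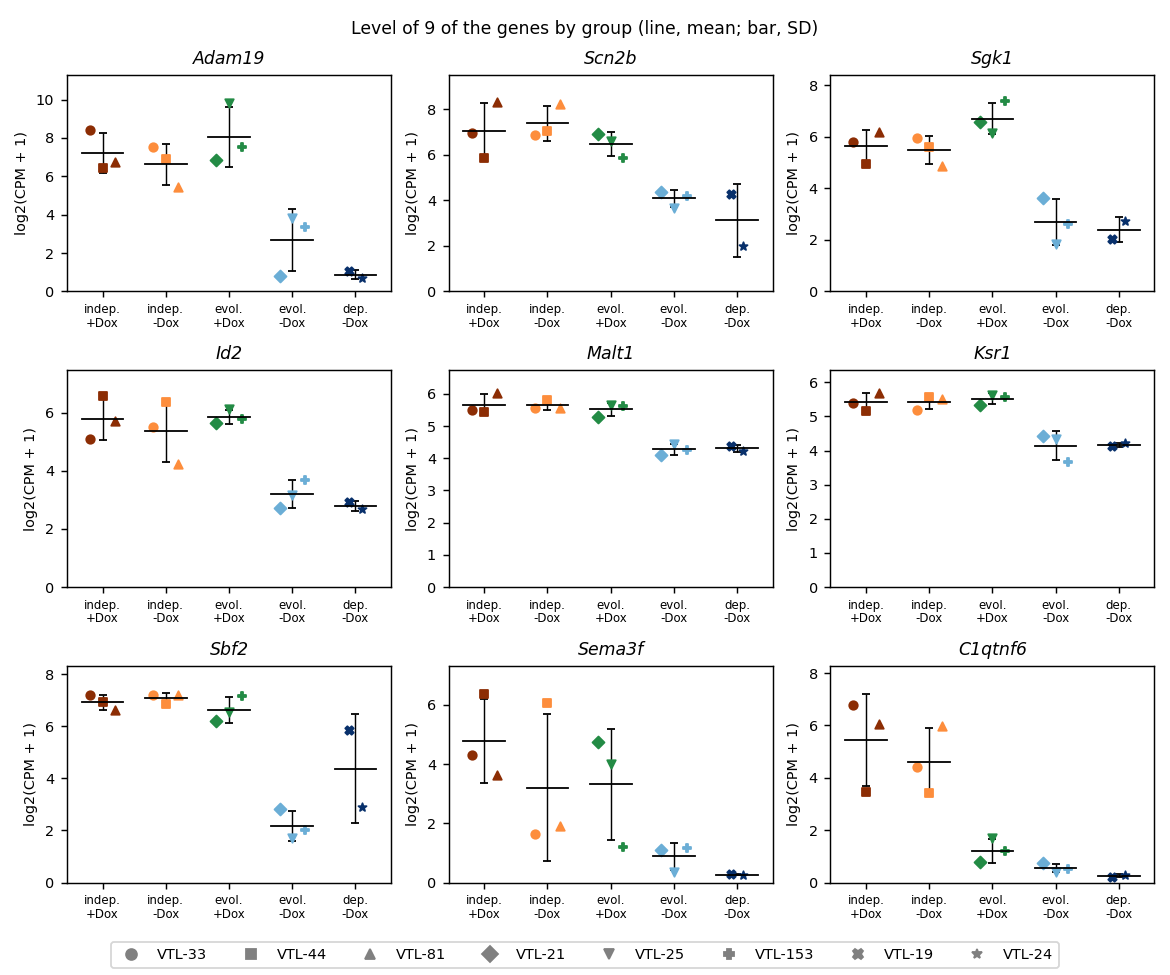
Level of 9 of the genes as log2(CPM + 1), with a point per tumour, a line at the group mean and a bar for the SD over tumours (n = 3 per group, 2 for dependent); indep., independent; evol., evolving; dep., dependent. Malt1 and Ksr1 are tight within groups, while Sema3f and C1qtnf6 spread widely over the 9 libraries, and C1qtnf6 is near the 5 libraries in evolving tumours with Dox.

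Variation within the 9 was wider for the 98 than for eligible genes at large: the median SD in log2(CPM + 1) was 0.66 against 0.34, and over the 5 it was 0.45 against 0.24. The choice and the level of the genes bear on these spreads, and no test was made. C1qtnf6 (2.23), Sema3f (1.87) and Bmp1 (1.54), a procollagen protease, were among the widest by SD over the 9, and Ksr1 (0.19), Eno1 (0.21) and Malt1 (0.21) the narrowest. VTL-21 with Dox was the lowest of the 9 for 20 genes and VTL-81 without Dox for 16. Of the 5, VTL-153 without Dox was the highest for 34, and VTL-24 was the lowest for 35.

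Some of the genes lie beside each other. All 98 identifiers were placed in GENCODE M21 on GRCm38 (mm10), and 31 of them (31.6%) had another of the 98 within 500 kb, against 761 of the 9779 other eligible genes placed (7.78%). On chromosome 9, Ccdc153, Bcl9l, Phldb1, Mpzl3, Amica1 and Scn2b lie between 44240676 and 45130070. Amica1, named Jaml in GENCODE, is an adhesion and costimulatory receptor. It stood at 24.2, 42.4 and 22.4 CPM in independent tumours with Dox, 28.2, 61.4 and 18.2 CPM in independent tumours without Dox, 60.3, 35.6 and 49 CPM in evolving tumours with Dox, 1.29, 3.24 and 6.87 CPM in evolving tumours without Dox, and 2.35 and 0.648 CPM in dependent tumours. All 9 libraries held at least 18.2 CPM and none of the 5 more than 6.87 CPM. It lies 9.25 kb from Scn2b and 1.75 kb from Mpzl3, a membrane protein of the same family as myelin protein zero. Genes between or beside them did not all share the pattern. Mpzl2 spanned 2.26 to 185 CPM in the 9 and 0.185 to 28.8 CPM in the 5, so its sets overlapped. Scn4b, another sodium channel subunit, spanned 1.52 to 22.5 CPM in the 9 and 0.0463 to 2.28 CPM in the 5, and its sets overlapped too. Kmt2a, a histone methyltransferase, spanned 229 to 468 CPM in the 9 and 526 to 866 CPM in the 5, the opposite direction.

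The promoters of the neighbours Amica1 and Scn2b are printed to show the pair at this locus. Both are on the + strand, at chr9:45078933-45079232 with 2 E boxes and at chr9:45117626-45117925 with 3, in capitals.
Amica1: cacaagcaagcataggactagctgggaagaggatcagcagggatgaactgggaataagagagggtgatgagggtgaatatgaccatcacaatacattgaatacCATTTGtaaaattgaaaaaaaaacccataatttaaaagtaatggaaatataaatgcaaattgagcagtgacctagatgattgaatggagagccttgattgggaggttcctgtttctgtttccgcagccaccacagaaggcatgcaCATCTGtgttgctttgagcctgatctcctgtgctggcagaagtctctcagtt
Scn2b: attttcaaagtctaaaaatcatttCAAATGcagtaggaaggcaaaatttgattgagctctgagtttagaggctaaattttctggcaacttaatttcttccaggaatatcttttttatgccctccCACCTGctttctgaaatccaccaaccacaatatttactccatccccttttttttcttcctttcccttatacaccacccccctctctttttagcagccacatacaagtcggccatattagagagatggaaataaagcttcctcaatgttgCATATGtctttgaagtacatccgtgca
Over the 9 libraries the log2(CPM + 1) of Amica1 and Scn2b had a Pearson correlation of -0.64, so they did not vary together there; the 9 libraries include pairs from the same tumours.

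On chromosome 15, Ncf4, Tst and C1qtnf6 lie near Il2rb, a chain of the interleukin-2 and interleukin-15 receptors. Il2rb spanned 9.18 to 129.98 CPM (median 22.4) in the 9 libraries and 0 to 2.04 CPM (median 0.373) in the 5, with a log2 difference of 4.12, and so met the conditions too but was left out by name. Kctd17, between them, spanned 0.196 to 87.5 CPM (median 5.2) in the 9 libraries and 0 to 0.333 CPM (median 0.104) in the 5, with sets that overlapped. On chromosome 7, Sbf2, Adm and Ampd3 are neighbours, with 12.7 kb between Sbf2 and Adm. Adm, the vasodilator peptide adrenomedullin, spanned 0.294 to 11.8 CPM (median 2.36) in the 9 libraries and 0 to 0.0926 CPM (median 0) in the 5, and Ampd3, an AMP deaminase, spanned 15.6 to 36.3 CPM (median 25.8) in the 9 libraries and 4.53 to 12.9 CPM (median 10.5) in the 5. Other close pairs included Wbscr27 and Cldn4 (2.48 kb) and Gramd3 and Aldh7a1 (5.90 kb). Chromosome 9 held 12 of the 98 genes (12.2%, against 5.84% of eligible genes), chromosome 15 held 7 (7.14%, against 4.29%) and chromosome 2 held 3 (3.06%, against 7.73%).

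**Figure D3:**
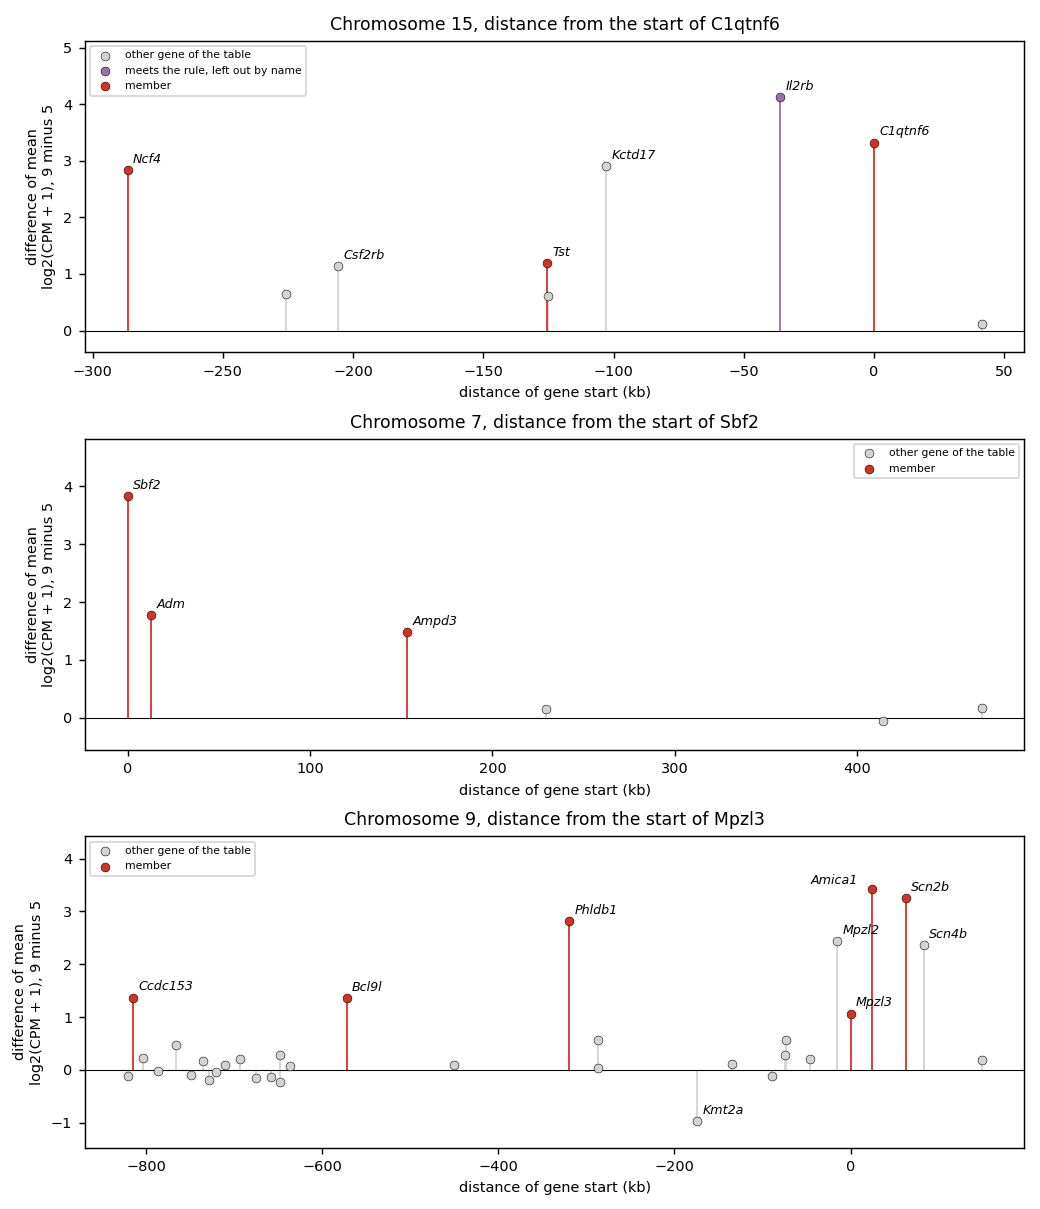
Difference of mean log2(CPM + 1), 9 libraries minus 5, for table genes around 3 clusters, by distance of the gene's leftmost base from that of a named gene (kb). The genes described here are red, Il2rb (4.12) is purple and other genes are grey; on chromosome 9 Amica1 (3.42), Scn2b (3.25) and the grey Mpzl2 (2.44) stand above most other genes, and Kmt2a (-0.97) lies below.

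Of the 98 genes, 70 were matched to a RefSeq promoter of 300 bases, taken at the first start listed. E boxes (CANNTG, which reads the same on both strands) were in 68.6% of these, against 72.1% of all 27025 promoters. The form CAGCTG, which lies within CANNTG, was in 20% against 16.1%. The Gata motif AGATAA, sought on both strands, was in 7.14% against 11.4%, the Runx motif TGTGGT in 17.1% against 16.9%, and the Ikaros motif TGGGAA in 21.4% against 25.5%. A match is a run of letters only.

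The contrast of Dox in the independent tumours was not part of the choice, since all 6 libraries lie on its high side. Their values were used, as each had to exceed all 5 low ones, which limits the values compared. No gene of the 98 was called by edgeR at an adjusted p of 0.05, nor any of the 12360 genes tested (0%). Unadjusted p fell under 0.05 for 4 of the 98 (4.08%) and for 87 of all genes (0.704%), and DESeq2 also called none. The median log2 fold change was 0.12 for the 98 and 0.01 for all genes. Pxylp1, a phosphatase of proteoglycan synthesis, stood at 36.5, 37.9 and 39.1 CPM in independent tumours with Dox, 25.3, 22.1 and 31.6 CPM in independent tumours without Dox, 18.3, 20.8 and 19.5 CPM in evolving tumours with Dox, 12.3, 12.8 and 10.6 CPM in evolving tumours without Dox, and 10.2 and 2.96 CPM in dependent tumours. Its fold change with Dox in independent tumours had the smallest p, at 0.56 in log2 (SE 0.18, edgeR adjusted p = 1), in 3 of 3 tumours. Gramd3 (1.35, SE 0.48) and Stard10 (0.65, SE 0.24), a lipid transfer protein, came next, each higher in 3 of 3 tumours, and did not pass either (edgeR adjusted p = 1).

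Tumour by tumour, VTL-33 had 64 of the 98 higher with Dox than without (65.3%, against 43.4% of eligible genes), 18 by at least 1 in log2(CPM + 1) (18.4%, against 3.33%) and 2 lower by as much (2.04%, against 2.28%). Sema3f (2.68), Cacng4 (2.54) and C1qtnf6 (2.36) were among those that gained most there. VTL-81 had 65 higher (66.3%, against 52.0%), 12 by at least 1 (12.2%, against 6.96%) and none lower by as much (0.889% of eligible genes were). VTL-44 had fewer higher, 37 (37.8%, against 47.1%), with 3 up by at least 1 (3.06%, against 0.98%) and 4 lower by as much (4.08%, against 5.95%). In all 3 independent tumours 14 genes were higher with Dox (14.3%, against 7.10%) and 6 were lower (6.12%, against 10.2%). VTL-33 was also the tumour in which Lmo2 stood at 1.27 CPM with Dox and 596 CPM without. Of the stromal and endothelial markers (4 of 11 measured, summing to 850 CPM with Dox and 255 CPM without), Pdgfrb stood at 611 CPM with Dox and 115 CPM without in that tumour, and Col1a2 at 101 and 19.4 CPM. Col1a1 ran the other way, at 0.381 CPM with Dox and 2.59 CPM without, and the endothelial Pecam1 stood at 138 and 117 CPM. In VTL-81 myeloid markers (13 of 13) stood at 2029 CPM with Dox and 190 CPM without. In VTL-44 the myeloid markers ran the other way, at 795 CPM with Dox and 1498 CPM without. The part of these cells in the result was not tested. In the evolving tumours the choice of genes sets every one higher with Dox, with median differences of 1.44, 1.93 and 1.48.

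**Figure D4:**
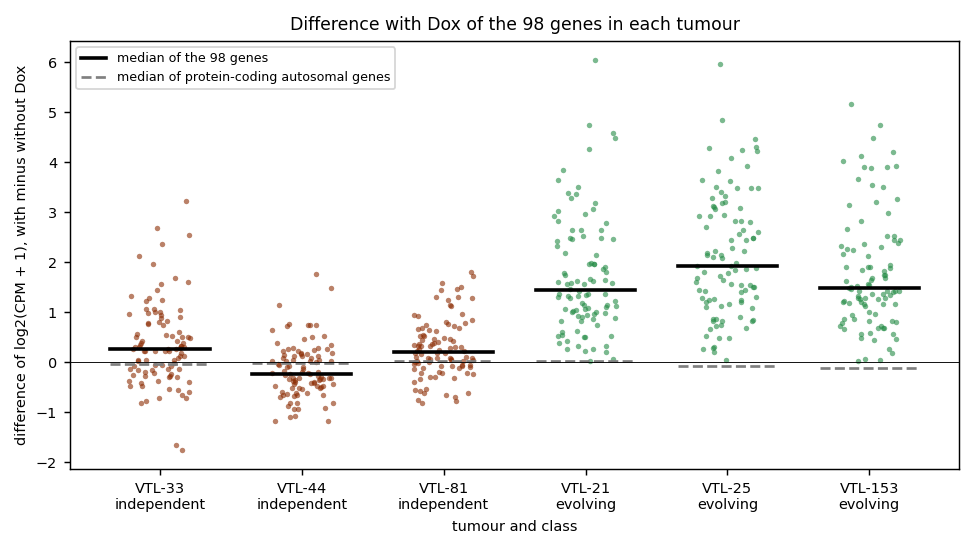
Difference of log2(CPM + 1), with Dox minus without, for the 98 genes in each tumour that had both. In VTL-33, VTL-44 and VTL-81 the medians were 0.27, -0.23 and 0.21, and in the evolving tumours, where the choice fixes the sign, they were 1.44, 1.93 and 1.48.

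Independent and evolving tumours with Dox are also on one side of the choice, and this comparison shares the 3 independent libraries with Dox with the one above. The choice also required each of these libraries to exceed all 5 low ones, which limits the values compared. edgeR called 0 of the 98 and 0 of 12093 genes (0%), with 13 of the 98 (13.3%) and 573 of all (4.74%) at an unadjusted p under 0.05. Without VTL-21, edgeR called 4 of all genes and still none of the 98. DESeq2 called 3 of the 98, against 0.784% of all genes. The median log2 fold change was 0.20 for the 98 and -0.01 for all. C1qtnf6 had the smallest p, with a log2 fold change of 5.45 (SE 1.00, edgeR adjusted p = 0.974; DESeq2 5.47, adjusted p 2.97e-09). The 3 independent tumours with Dox were all above the 3 evolving ones for it. Pxylp1 followed at 0.96 (SE 0.19) and D630039A03Rik at 3.93 (SE 1.06), neither past the edgeR threshold (adjusted p = 0.974), and D630039A03Rik had few counts in evolving tumours. DESeq2 also called Pxylp1 (adjusted p = 0.0106). Groups did not overlap for 6 genes higher in independent tumours (6.12%, against 4.61% of eligible genes) and 5 lower (5.10%, against 4.64%).

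Evolving and dependent tumours without Dox make up the 5 low libraries. The choice required each of these to lie below all the other libraries, which limits the values compared. edgeR called 0 of the 97 genes tested, Scn8a being too low, and 0 of 12348 in all (0%). Unadjusted p was under 0.05 for 5 of the 97 (5.15%) and for 419 of all (3.39%). DESeq2 called 3 of them, against 0.523% of all genes: Hsd17b11 and Ddr1, higher in evolving tumours, and Sbf2, lower. Their edgeR log2 fold changes were 2.48 (SE 0.67) for Hsd17b11, 2.97 (SE 0.81) for Ddr1 and -3.06 (SE 0.81) for Sbf2, each with an adjusted p of 1. The Sbf2 difference rested largely on VTL-19, at 56.7 CPM against 6.44 CPM in VTL-24. With VTL-19 left out, so that VTL-24 was the only dependent tumour, the edgeR log2 fold change of Sbf2 was -0.80. The median log2 fold change was 0.29 for the 97 and 0.01 for all. The evolving tumours lay wholly above the dependent ones for 12 genes (12.2%, against 13.0% of eligible genes) and wholly below for 3 (3.06%, against 7.29%).

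None of the 10 pathway lists had a gene called by edgeR in these 3 comparisons. Only Malt1, Cd96, Tnfsf11 and Rps6ka1 of the 98 are in the lists. The early progenitor and Lmo2-linked list, of which 15 genes were measured, had a median difference of -2.16 between the 9 and the 5, against -0.02 for all eligible genes. That list includes Lmo2 itself and was chosen with earlier results of these data known, so its direction is a description only. The costimulatory and inhibitory receptors (20 measured) had 0.46 and the T lineage list (36 measured) had 0.16. The lists not named here ran from -0.09 to 0.22. Of the receptors, Cd28, Icos, Cd96 and Tnfsf11 were separated, but each of these met the conditions of the choice, so this restates it. Among the 9896 eligible genes, 161 were lower in all 5 libraries at any difference.

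Markers of other cells were summed because the sort could let some through. T lineage markers (8 of 8 measured) summed to 3634 to 6476 CPM in the 9 libraries and 4743 to 5606 CPM in the 5. B cell markers (3 of 10) spanned 29.6 to 6416 CPM in the 9 and 55.6 to 251 CPM in the 5. The top was VTL-21 with Dox, where Ighm alone held 6409 CPM, while Cd79b stood at 4.57 CPM with Dox and 14.99 CPM without, and Blk at 1.56 and 15.4 CPM. Myeloid markers (13 of 13) spanned 19.0 to 2029 CPM in the 9 and 17.5 to 226 CPM in the 5. Both lists reached higher in some of the 9 libraries than in any of the 5. Stromal and endothelial markers (4 of 11) spanned 174 to 896 CPM in the 9 and 141 to 185 CPM in the 5. Every library of the 9 except VTL-153 with Dox (174 CPM) was above all 5 in that sum. Much of this lay in Pdgfrb, at 1.62 to 611 CPM in the 9 and 0 to 50.5 CPM in the 5. Col1a2 spanned 0.201 to 166 CPM in the 9 and 0 to 2.5 CPM in the 5. Col1a1 (0.294 to 25.3 CPM against 1.56 to 20.05 CPM) and Pecam1 (117 to 166 CPM against 124 to 147 CPM) overlapped widely. NK and innate markers (6 of 12) spanned 79.2 to 1552 CPM in the 9 and 111 to 347 CPM in the 5. Most of the NK and innate sum was Gzma, a granzyme. Erythroid markers (7 of 11) spanned 276 to 468 CPM in the 9 and 172 to 333 CPM in the 5, and in most libraries nearly all of it was Tfrc, the transferrin receptor, which other dividing cells express too. The ranges overlap for all 6 lists, and the highest of the 9 was above the highest of the 5 in each. No measured marker was at 0 in all libraries, and none is among the 98 genes. The part of such cells in the separation was not tested. Without the VTL-21 tumour 148 genes met the conditions, 1.5% of the eligible genes. Leaving out any other tumour also raised the share from 0.99%, to between 1.01% and 1.55%.

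For 8 of the genes an exon overlaps one of another gene in the table (Pde2a, Aim1, Aldh7a1, Cd52, Evl, Ampd3 and Pcdhgb7 among them), and the strand setting of the counting is not given, so their counts may include reads of the neighbour.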

How the data were processed

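RNA of 14 libraries from 8 tumours was analysed from the raw counts per gene that the authors deposited, whole numbers with no normalization. STAR 2.5.2b, featureCounts and the mm10 build are named in the submitters' processing notes. Which gene annotation and strand setting were used is not given in the sources used here. Libraries were made with the NEBNext Ultra II kit, per the labels' protocols. The file also has 42 per-sample columns on other scales, which were not used.

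CPM came from plain column totals, and levels are log2(CPM + 1). The genes and the gene lists were chosen with earlier results of these data known, and named genes were the 25 with the largest difference, the 10 with the highest mean in the 9 libraries, those in a list, those at the cut and the 3 with the smallest p per comparison. The tests used edgeR 4.0.16 under R 4.3.3 on the counts (TMM factors, filter on low counts, robust quasi-likelihood fits, Benjamini-Hochberg adjustment over all genes tested, threshold 0.05), on 8 libraries without Dox, on 12 with tumour as a replicate block and a Dox term per class, and on 6 with Dox. The SE is the fold change over the square root of F. DESeq2 1.42.0 was an alternative. The scripts were tested on simulated data.

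The tumour number pairs libraries of the same leukaemia. Deviations from the group mean correlated between partners at 0.716, 0.645 and 0.563 in VTL-33, VTL-44 and VTL-81 and at 0.151, 0.0166 and 0.188 in VTL-21, VTL-25 and VTL-153. Positions are those of GENCODE M21 on GRCm38, which is mm10, where all 98 identifiers were found, 90 with the same symbol. A few of the genes are counted in the totals but not reported by name here.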

Additional observations from a re-analysis of the deposited data

Results flagged for a closer look

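In 6 of the genes every independent tumour was lower with Dox than without, while every evolving tumour was higher. The choice of genes fixed the direction in evolving tumours, and the difference between the classes was not tested. The mean Dox difference in log2(CPM + 1) was -0.67 in independent and 3.44 in evolving tumours for Trpm1, a cation channel, which is -4.11 between the classes. For Tdrd5, a Tudor-domain protein of germ cells, the means were -0.67 and 2.18, a difference of -2.84. The independent mean of Tdrd5 came mostly from VTL-33 (-1.75), with -0.04 in VTL-44 and -0.20 in VTL-81. For Ccdc153 the means were -0.59 and 1.70, a difference of -2.29. Tcf7l1, a transcription factor of the Wnt pathway, had -0.46 and 1.16, a difference of -1.62. Prtg, an immunoglobulin-family membrane protein, had -0.48 and 1.12, a difference of -1.60, and Lrrc27 had -0.21 and 1.38, a difference of -1.59. In VTL-81 the Dox difference of Lrrc27 was only -0.03. These 6 are 6.12% of the genes, below the 10.2% of eligible genes that were lower with Dox in all 3 independent tumours, while 14 genes (14.3%, against 7.10%) were higher in all 3.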

How the results depend on the processing

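The conditions gave 98 genes in the analysis as reported, 0.99% of the eligible genes. A pseudocount of 5 gave 64 genes (0.647%), all among the 98, and a difference of at least 2 gave 40 (0.404%). TMM-scaled CPM gave 105 genes (97 shared), RLE-scaled CPM 103 (95 shared), and a pseudocount of 0.1 gave 101 (98 shared). Leaving out a tumour, with fewer libraries to separate, gave 1.01% to 1.55% of the eligible genes, 1.5% without VTL-21 and 1.55% without VTL-153. For evolving against dependent tumours without Dox, DESeq2 called 64 of all genes and 3 of the 98, where edgeR called 0, and leaving out a tumour gave 0 to 1 of all genes (1 without VTL-33). For independent against evolving tumours with Dox, DESeq2 called 94 and 3, where edgeR called 0, and leaving out a tumour gave 0 to 4 (4 without VTL-21). For Dox in independent tumours every alternative, DESeq2 and the fit with no replicate block included, called 0. The cause of these differences was not tested. Of the 107 alternative values of the 9 named results of single genes, 102 stayed on the same side of the threshold and in the same direction, and 5, all from DESeq2, passed it. Their adjusted p over the alternatives spanned 0.0150 to 1 for Sbf2, 0.0407 to 1 for Hsd17b11, 0.0491 to 1 for Ddr1, 2.97e-09 to 1 for C1qtnf6 and 0.0106 to 1 for Pxylp1 between the classes. Depth limits the values of the 20 genes under 1 CPM in all 5 libraries.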

Other observations

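Another 15 autosomal genes met the same conditions but carry a biotype other than protein-coding in the table, some of them known protein-coding genes. Ikzf3, the Ikaros-family factor Aiolos, differed by 2.69 on the log2(CPM + 1) scale, higher in the 9 libraries. Itga6, an integrin that binds laminin, differed by 1.69, Tnfrsf8, the receptor CD30, by 1.60, Map3k8, a kinase upstream of ERK, by 1.20, and Elk3, an ETS-family factor, by 1.08. Among the 12 left out by name, Il2rb differed by 4.12, Sdc1, the proteoglycan syndecan-1, by 4.05 and Icos, a costimulatory receptor, by 2.38.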
